A study of Mus musculus with 73 samples.

Results

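Imprinted control regions are stretches of DNA at which only the copy inherited from 1 parent carries methylation, so that cells with both copies intact read close to 50%. The tiles described here are the 100 bp RRBS intervals whose start fell inside 15 windows of the mm9 genome that hold such regions. The rule used position alone and no measured value, though the windows were chosen with earlier results of these data known. It found 193 of the 817277 tiles in the deposited table. All 27 libraries had a value at 114 of them (331959 tiles in the whole table), 67 were measured in some libraries, and 12 were listed without a value in any library. Each window is called by the imprinted gene known to lie there. These names come from textbook knowledge of the mm9 positions and were not matched to an mm9 annotation, so exon, intron and promoter status are not given for single tiles.

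The series asked how the forkhead factors Foxa1 and Foxa2 shape DNA methylation in mouse liver. RRBS, which sequences CpG-rich fragments after bisulfite treatment, was run on hepatocyte DNA, giving 27 libraries in 10 groups. The age series held 4 controls and 4 developmental double nulls, 1 of each at 20 days, 8 weeks, 4 months and 6 months. Livers depleted in development that kept alleles were FoxA1L/L;FoxA2L/+ (n = 2) and FoxA1L/+;FoxA2L/+ (n = 2), all 8 weeks old, and no control of their own was given. The WGBS protocol names Alfp Cre for the developmental loss, and the RRBS labels do not name the Cre line for this loss. Triple nulls were taken 7 days (n = 3, 9 weeks old) and 13 days (n = 2, 12 weeks old) after Cre induction. Their controls (n = 3 and n = 2, at the same ages) were FoxA1L/L;FoxA2L;L;FoxA3-/- livers after GFP induction, so the triple null groups and their controls all lacked Foxa3. Adult double nulls after partial hepatectomy (n = 3) had controls with an AAV GFP injection and partial hepatectomy (n = 2), all 12 weeks old. WGBS and HNF6 ChIP used floxed Foxa1L/L;2L/L mice without Cre as controls (n = 2 and 3), and the same genotype with Alfp Cre (n = 2 each) or AAV Cre (n = 2 each) as nulls. The adult WGBS nulls received AAV8 with Cre under the hepatocyte-specific Tbg promoter. The RRBS labels do not say which virus the triple nulls received. The files hold methylation levels and peaks and no expression, so the hepatocyte identity and the loss of Foxa genes could not be checked from markers or reads.

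Imprints are set in the germ line, in sperm or oocytes, and are kept on 1 parental copy through the wave of demethylation after fertilisation. The zinc finger protein ZFP57 binds a methylated hexamer in many of these regions and recruits factors that keep the mark. Methylation of the control region decides which parental copy of the neighbouring genes is expressed, and several of these genes, such as H19, Igf2r, Grb10 and Plagl1, act on fetal growth and are active in fetal liver. Of the windows, 13 carry methylation on the maternal copy and 2, H19 and Meg3, on the paternal copy.

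The DNA itself is shown for 3 of the genes whose names the windows carry, because CpG positions (CG in capitals) are the only places where RRBS reads a level. RefSeq (GRCm38.p6) gave a single start for 6 of these genes, and the 250 bases before it are printed. The stretches are chr10:13090582-13090831 on the plus strand for Plagl1, chr2:157559828-157560077 on the plus strand for Nnat and chr7:143296548-143296797 on the minus strand for Kcnq1ot1. These positions belong to GRCm38.p6 and cannot be placed on the mm9 tiles.
Plagl1: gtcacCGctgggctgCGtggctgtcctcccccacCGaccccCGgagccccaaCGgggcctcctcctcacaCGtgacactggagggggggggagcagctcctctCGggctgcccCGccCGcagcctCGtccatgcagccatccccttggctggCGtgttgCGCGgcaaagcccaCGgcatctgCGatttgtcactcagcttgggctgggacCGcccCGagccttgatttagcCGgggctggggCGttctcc
Nnat: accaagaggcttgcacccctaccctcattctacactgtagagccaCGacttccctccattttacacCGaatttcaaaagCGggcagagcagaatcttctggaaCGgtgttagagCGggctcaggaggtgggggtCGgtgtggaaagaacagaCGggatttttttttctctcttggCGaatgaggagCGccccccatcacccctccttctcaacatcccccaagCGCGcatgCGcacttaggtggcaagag
Kcnq1ot1: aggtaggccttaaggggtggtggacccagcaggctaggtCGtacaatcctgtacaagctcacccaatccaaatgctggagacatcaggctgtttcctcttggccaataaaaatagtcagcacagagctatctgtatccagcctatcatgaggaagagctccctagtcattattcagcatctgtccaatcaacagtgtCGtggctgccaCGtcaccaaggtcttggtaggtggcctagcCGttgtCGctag

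The Plagl1 stretch held 19 CpGs, the most of the 6 genes with a single start. Nnat held 12, Peg3 8, Zrsr1 8, Kcnq1ot1 5 and Airn, the noncoding RNA that starts inside Igf2r, 2. The median over 32851 RefSeq promoters of the same length was 6. The ZFP57 hexamer TGCCGC, searched on both strands, was found 1 time in the Plagl1 stretch, where it reads gcggca, and in none of the other 5. It was present in 8.68% of all promoters of that length. A match is a match of letters only, and its absence from these windows of 250 bases says nothing of ZFP57 binding elsewhere in the regions.

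Most tiles of the imprinted windows stood near 50%. Of the 114 tiles measured in all 27 libraries, 88 (77.2%) had a mean level of 40 to 60%, against 3.78% of the other tiles. By contrast, 35.6% of the other tiles were under 20% and 48.2% were over 80%, where only 2 and 6 tiles of the windows lay. In the 13 maternally methylated windows 85 of 106 tiles were at 40 to 60%, and in the 2 paternally methylated windows 3 of 8. Neighbouring tiles share fragments and reads of the same library, so the tiles are not independent of each other.

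**Figure D1:**
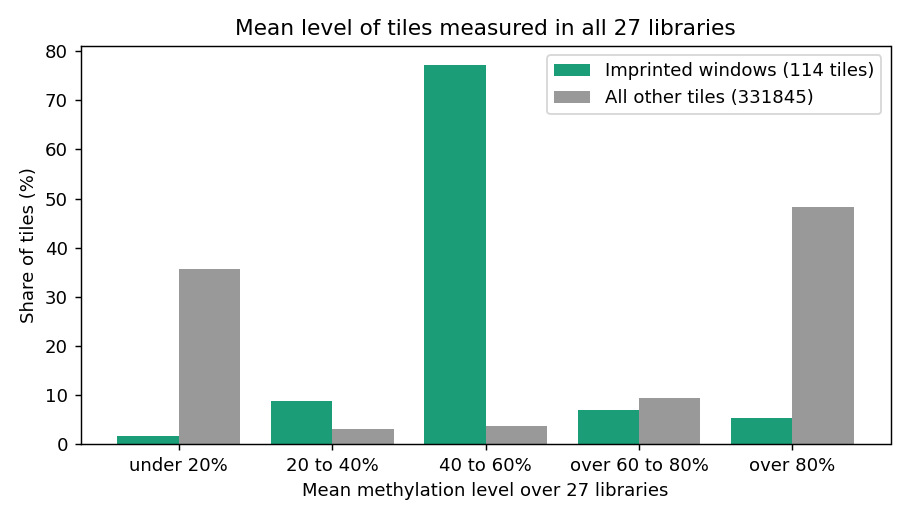
Share of tiles (%) in each class of mean methylation level over the 27 RRBS libraries, for the 114 tiles of the imprinted windows (green bars) and all other tiles (grey bars). The 40 to 60% class holds 77.2% of the imprinted tiles and 3.78% of the others.

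Among the windows methylated on the maternal copy, 10 are taken first. Their means are given over the tiles measured in all 27 libraries, with the SD between libraries. Peg10, a retrotransposon-derived gene needed by the placenta, stood at 44.9% ± 10.8 (SD, n = 27) over 2 tiles. Mest, which encodes a hydrolase-like membrane protein, stood at 47.1% ± 10.1 over 3 tiles. Peg3, a zinc finger gene, stood at 49.0% ± 7.61 over 2 tiles. Snrpn, in the region affected in Prader-Willi syndrome, stood at 45.2% ± 4.83 over 5 tiles and had one of the smallest spreads. Grb10, which encodes an adaptor of the insulin receptor, stood at 49.9% ± 5.84 over 10 tiles. Zrsr1, a splicing factor gene inside an intron of Commd1, stood at 48.0% ± 5.25 over 15 tiles. Nnat, which encodes the proteolipid neuronatin, stood at 55.6% ± 6.42 over 12 tiles. Plagl1, a zinc finger transcription factor gene, stood at 44.1% ± 10.1 over 6 tiles. Impact, which encodes an inhibitor of the kinase GCN2, stood at 50.9% ± 8.07 over 6 tiles. Peg13, a noncoding RNA gene within Trappc9, stood at 58.7% ± 5.76 over 10 tiles. All 10 window means therefore lay between 44.1% and 58.7%.

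The other maternally methylated windows were Kcnq1ot1, Igf2r and Gnas. Kcnq1ot1, a long noncoding RNA that silences genes around Kcnq1, had the lowest window mean, 43.4% ± 8.93. Igf2r, whose intronic region holds the promoter of the antisense RNA Airn, stood at 46.0% ± 9.35 over 5 tiles. Gnas, which encodes the stimulatory G protein alpha subunit and has several imprinted transcripts, stood at 47.4% ± 5.73 over 26 tiles, the most of any window. When all 15 windows are put in the order of their means, neighbours differed by less than the SD between libraries, except Peg13 and Meg3.

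Of the paternally methylated windows, only Meg3 read above all maternally methylated ones. H19, whose control region insulates Igf2 from its enhancers on the unmethylated maternal copy, stood at 57.0% ± 5.99 over 4 tiles, with tile means from 40.3% to 75.7%. Meg3, the noncoding RNA gene of the Dlk1-Dio3 domain, stood at 74.3% ± 4.19 over 4 tiles and was the 1 window outside 40 to 60%. Its 4 tile means ran from 47.7% to 88.3%, and 2 of them were over 80%.

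**Figure D2:**
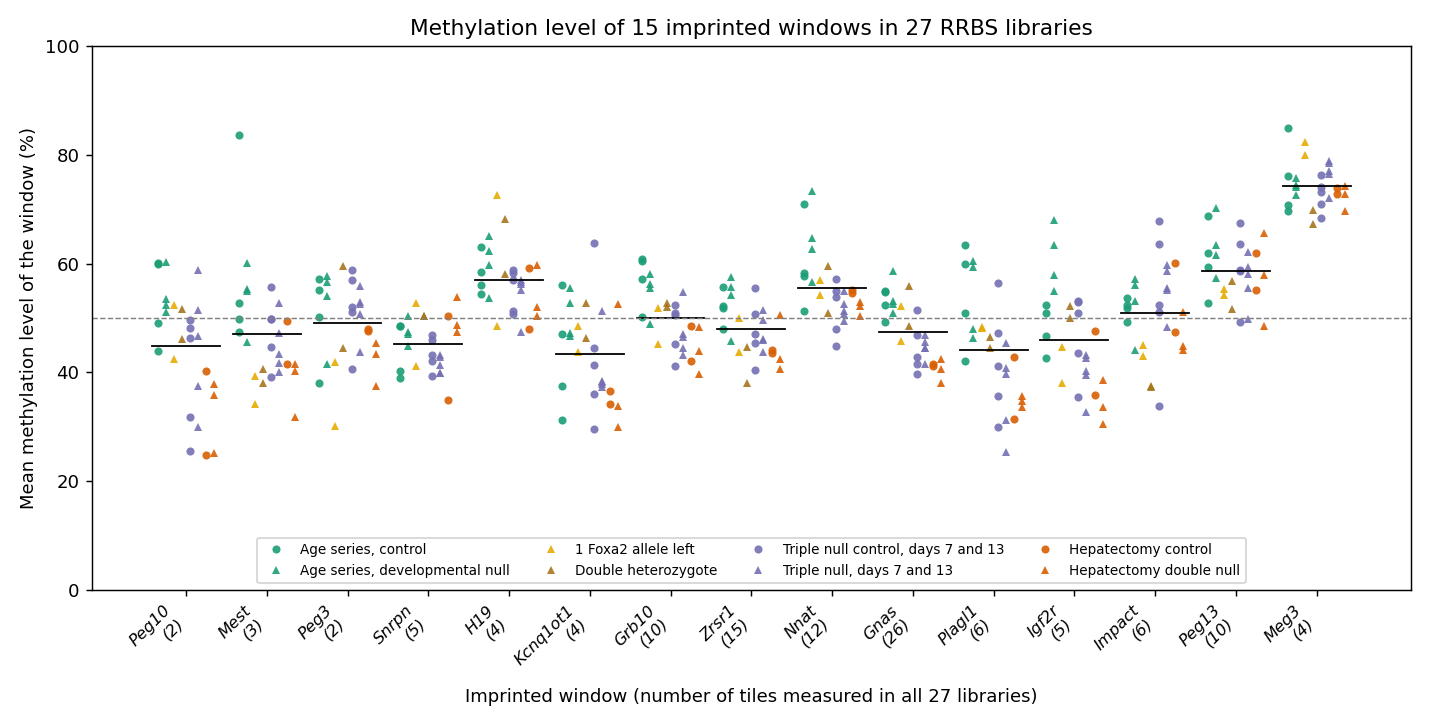
Mean methylation level (%) of each of the 15 windows, 1 point per RRBS library coloured by experiment (circles, controls; triangles, mutants), with a black line at the mean over 27 libraries and a dashed line at 50%. Of the 15 window means, 14 lie between 40 and 60%, and Meg3 lies at 74.3%.

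Levels also varied inside windows. The named tile of each window is the one whose mean over the 27 libraries was nearest to 50%. For Zrsr1 it was chr11:22872101-22872200, with a lowest value of 38.7%, a median of 50.4% and a highest of 62.4%, the narrowest SD (6.65 points) of the 15. In Grb10 it was chr11:11925601-11925700, with 29.8%, 50.0% and 67.7% for the lowest, median and highest library. The lowest value of both tiles came from the same library, a day 13 triple null. For Gnas, chr2:174125801-174125900 ran from 35.8% through 48.9% to 75.7%. For Igf2r, chr17:12935201-12935300 ran from 37.0% through 47.8% to 66.1%. For Plagl1, chr10:12810801-12810900 ran from 33.3% through 45.4% to 63.9%. In these 3 the highest value came from the age series. Peg3 (chr7:6683001-6683100) ran from 29.5% through 51.6% to 60.1%. Mest (chr6:30689301-30689400) ran from 32.6% through 48.6% to 73.8%. Its highest value was the 20-day control. Peg10 (chr6:4697301-4697400) ran from 21.1% through 46.3% to 66.0%. Snrpn (chr7:67150001-67150100) ran from 27.3% through 46.6% to 70.4%. Kcnq1ot1 (chr7:150481201-150481300) had the highest single value, 84.0%, in a control of the day 13 triple nulls, with a lowest of 27.1% and a median of 50.0%. The other control of that group read 57.1%. Impact (chr18:13131601-13131700) ran from 27.5% through 50.2% to 67.5%. Peg13 (chr15:72640301-72640400) ran from 30.4% through 50.3% to 71.7%. Nnat (chr2:157387301-157387400) ran from 22.2% through 50.0% to 74.1%. The choice of these tiles fixed a level near 50%, so their ranges and not their medians describe the windows. In the paternally methylated windows, H19 (chr7:149764001-149764100) ran from 31.5% through 38.9% to 62.3%. Meg3 (chr12:110763901-110764000) ran from 15.7% through 50.0% to 64.3%, and both controls of the day 13 triple nulls (26.2% and 15.7%) were among its low libraries.

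Levels outside the windows differed from window to window, and many windows had no measured tile nearby. Up to 5 kb outside the windows there were 36 tiles measured in all 27 libraries, around 7 of the windows, with a median of 42.0%. The 5 tiles beside Peg10 were at 90.8 to 96.2% and the 10 tiles beside Nnat at 0.484 to 1.81%. They began 4301 bp outside the Peg10 window and 3401 bp outside the Nnat window, so where the level changed was not seen. The tiles beside Mest were at 39.7% and 93.0%, and the tile beside Kcnq1ot1 was at 62.1%. The 4 tiles beside H19, at 45.9 to 52.4%, and 8 of the 11 beside Gnas were at 40 to 60%, so this middle level also occurred outside the limits of the rule. At Gnas it was not seen to run on from the window. Between the outside tiles and the window tiles measured in all 27 libraries, chr2:174116901-174117000 read 66.7% to 100% in 26 libraries. Further on, chr2:174121001-174121100 read 0% to 60% in 23 libraries, mostly under 40%. The 3 tiles beside Peg13 lay at 23.3 to 34.0%, below the 58.7% of the window. Among the tiles inside the windows measured in all 27 libraries, the 2 low ones belonged to Nnat (15.4% and 15.3%). The 6 high ones belonged to Nnat, Peg13 and Meg3, 2 in each.

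**Figure D3:**
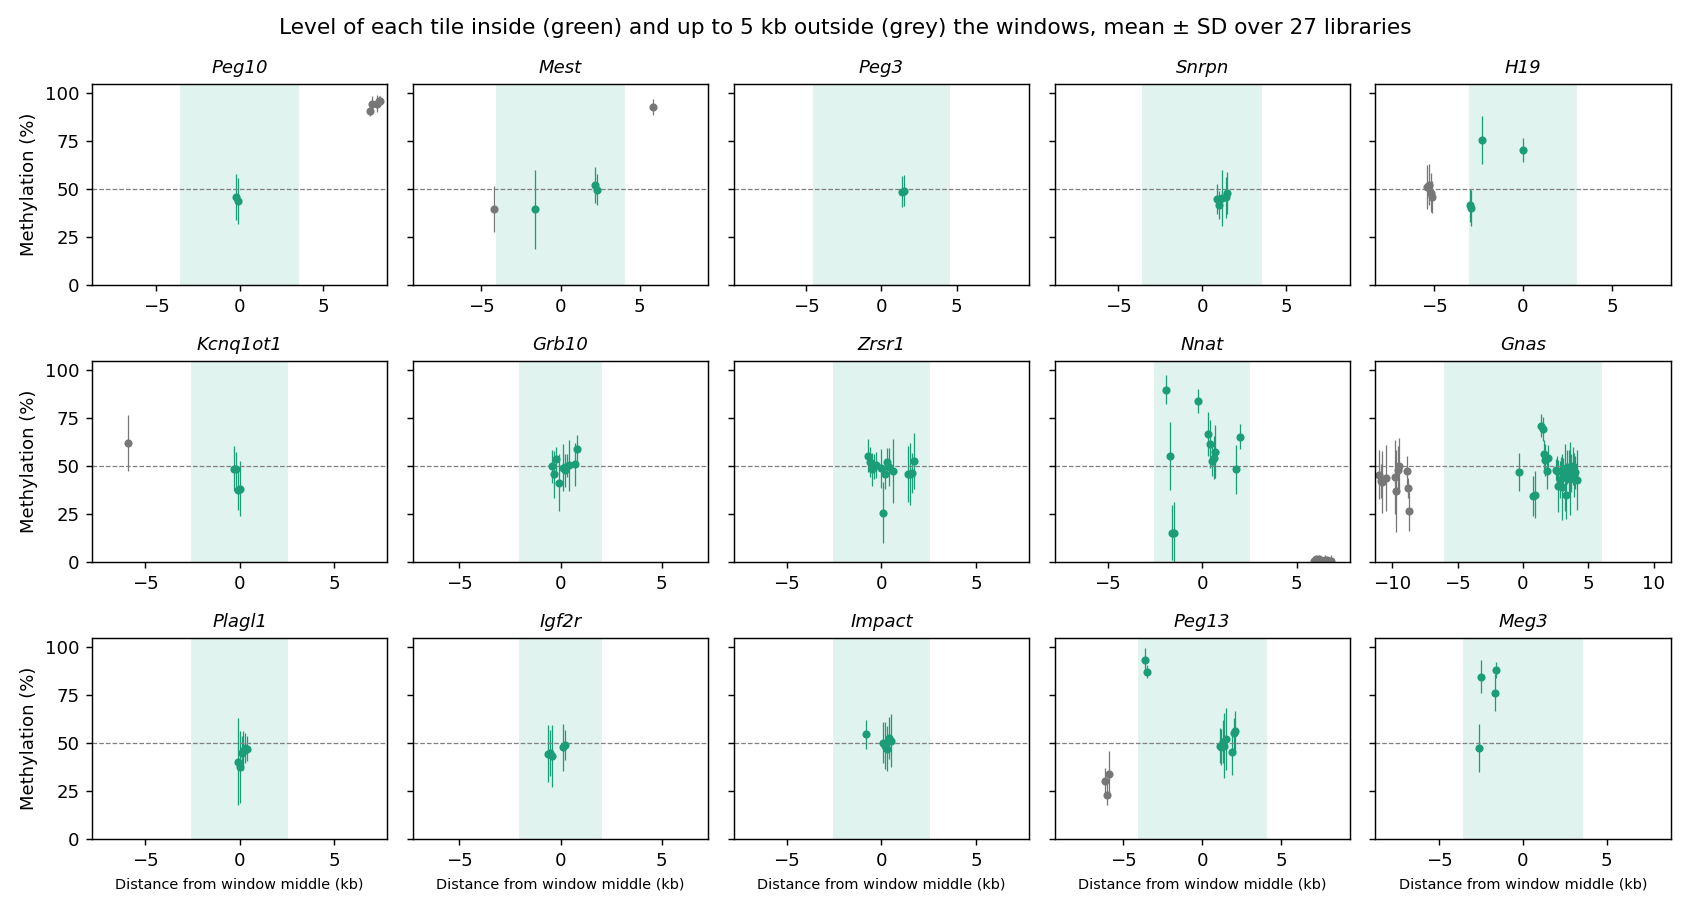
Mean methylation level (%) ± SD over 27 libraries of each tile inside a window (green, shaded span) and up to 5 kb outside it (grey), against the distance from the middle of the window in kb. Only tiles measured in all 27 libraries are shown. Most of them sit near the dashed line at 50%, while Nnat, Peg13 and Meg3 each also hold 2 over 80%.

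Across the 10 groups the windows kept to the middle range. Of the 150 means of a window in a group, 113 lay at 40 to 60% and 141 at 30 to 70%. The lowest was Plagl1 in the day 7 triple nulls (32.1% ± 7.25, SD, n = 3), and the highest outside Meg3 was Nnat in the developmental nulls (64.3% ± 6.90, n = 4). Averaged over the 15 windows, the groups of the age series were highest, with 54.6% ± 2.60 (n = 4) in controls and 56.7% ± 3.59 (n = 4) in developmental nulls. The livers that kept alleles stood at 50.8% ± 0.205 (FoxA1L/+;FoxA2L/+, n = 2) and 49.6% ± 2.71 (FoxA1L/L;FoxA2L/+, n = 2). The day 13 groups were at 51.1% ± 3.44 in controls and 50.5% ± 2.40 in triple nulls (n = 2 each). The day 7 groups were at 49.2% ± 4.40 and 47.9% ± 1.10 (n = 3 each). The hepatectomy groups were lowest, at 47.2% ± 3.29 in controls (n = 2) and 45.5% ± 3.42 in nulls (n = 3). Within each experiment the difference between mutant and control was smaller than the SD of the controls.

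Away from the windows the age series was also highest and the hepatectomy experiment lowest. All other tiles of 40 to 60% averaged 53.0% in the age series controls and 55.6% in the developmental nulls. They averaged 52.2% and 51.7% in FoxA1L/+;FoxA2L/+ and FoxA1L/L;FoxA2L/+ livers, and 51.4% and 50.7% in the day 13 controls and triple nulls. The day 7 controls and triple nulls stood at 48.5% and 48.3%, and the hepatectomy controls and nulls at 47.1% and 47.2%. Tiles under 10% averaged 3.70% and 3.80% in the age series, against 1.31% to 1.73% in the other 8 groups. At 8 weeks of age these low tiles averaged 4.05% in the age series control and 3.96% in the developmental null. The livers that kept alleles, also 8 weeks old, averaged 1.54% to 1.87%. Whether age, mutation or library making lay behind the differences between experiments was not tested.

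The spread between replicate libraries was close to that of other tiles at the same level. The 88 imprinted tiles of 40 to 60% had a median within-group SD of 8.44 points (quartiles 7.04 and 10.8). The 12535 other tiles of the same mean level, with no chromosome left out, had 9.29 points (7.14 and 11.7). Group means of a tile spanned a median of 22.6 points in the windows and 21.4 points elsewhere. Among tiles of the same level inside the authors' deposited list of sites with raised methylation in developmental nulls, which was chosen on WGBS of the same genotypes, 20 tiles had an SD of 11.6 points and a span of 42.9 points. The list covers only 268 of the 817277 tiles, so the count of 0 imprinted tiles inside it is no result about them. These are descriptions, and tiles were not counted as replicates.

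Loss of Foxa1 and Foxa2 in development left no tile and no window past the test. Only a small share of all tiles and regions passed, so the counts of 0 are no result about the windows. Comparing 4 developmental nulls with 4 controls of the same ages, limma's moderated test with Benjamini-Hochberg adjustment over all tiles at 0.05 called 0 of 117 imprinted tiles, against 0.238% of the 369462 tiles tested. At an unadjusted p under 0.05 there were 16 imprinted tiles (13.7%, against 8.77% of all tiles). The median difference was 0.78 points over the imprinted tiles and 0.28 over all tiles. For windows, which were tested as regions with at least 3 tiles beside 5 kb bins of the genome, 0 of 13 passed, against 0.472% of 47071 regions, and 1 had an unadjusted p under 0.05 (7.69%, against 9.51% of regions). Their differences ran from -4.47 points (Mest) to 12.9 points (Igf2r), with a median of 1.38, and 95% intervals lay within 20 points of 0 in 11 of 13 windows.

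Igf2r, the receptor that takes up and degrades IGF2, had the smallest window p. Its 5 tiles averaged 68.0%, 63.5%, 55.1% and 57.8% in nulls of 20 days, 8 weeks, 4 months and 6 months. The controls of those ages were at 46.8%, 42.6%, 52.4% and 51.0%. All 4 nulls were above all 4 controls, and the gap was narrowest at 4 months. The means were 61.1% ± 5.77 and 48.2% ± 4.43, a difference of 12.9 points with a 95% interval of 4.76 to 21.0 and an adjusted p of 0.191 by limma, which does not pass. In the other experiments the nulls were below their controls at this window, by 6.45 points at day 7, 9.27 at day 13 and 7.49 after hepatectomy, none past the test. The size of the day 7 difference varied with the control left out, though its sign held. It was -12.3 points without control 2, -3.61 without control 1 and -3.44 without control 3. The difference between the developmental and the day 7 effect was 19.4 points (SE 5.97, adjusted p = 0.561 by limma's interaction term), the smallest adjusted p of 39 such contrasts in the windows. Of the single tiles, Nnat chr2:157385301-157385400 had the smallest p, at 90.9% ± 3.35 in nulls and 76.8% ± 9.81 in controls (adjusted p = 0.165), and it did not pass either.

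In adult triple nulls no imprinted tile or window passed the test at either time. Hardly any tiles or regions passed anywhere, so these counts of 0 are no result about the windows. At day 7, 0 of 141 imprinted tiles passed limma's test, against 0.00416% of 480615 tiles, and 1 had an unadjusted p under 0.05 (0.709%, against 4.1% of all tiles). None of 14 windows passed (0 of 14, against 0.00463% of 64741 regions), and none had an unadjusted p under 0.05, against 4.61% of regions. The intervals of all 14 lay within 20 points of 0. The tile with the smallest p was Igf2r chr17:12934601-12934700, with 32.3%, 45.7% and 25.0% in triple nulls and 57.9%, 57.8% and 57.1% in controls (adjusted p = 1 by limma). The 3 controls were close together and above all 3 nulls. At day 13, 0 of 132 tiles passed, against 0.00747% of 442000 tiles, and 10 had an unadjusted p under 0.05 (7.58%, against 4.68% of all tiles). Among windows 0 of 14 passed, against 0% of 57594 regions. At an unadjusted p under 0.05 there was 1 window (7.14%, against 4.89% of regions, or 2818). Over 7 tiles the Mest window stood at 42.9% and 43.6% in triple nulls and 53.4% and 50.1% in controls, a difference of -8.53 points (SE 3.03, adjusted p = 0.949 by limma). Its groups of 2 libraries did not overlap, and the adjusted p does not pass.

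After partial hepatectomy, when hepatocytes divide, no imprinted tile or window of adult double nulls passed the test. Here too hardly any tiles or regions passed anywhere, so the counts of 0 are no result about the windows. Of 132 imprinted tiles 0 passed, against 0.00186% of 482859 tiles, and 4 had an unadjusted p under 0.05 (3.03%, against 4.67% of all tiles). Of 13 windows 0 passed, against 0% of 64502 regions. At an unadjusted p under 0.05 there was 1 window (7.69%, against 4.56% of regions, or 2939). Snrpn, which encodes a small nuclear ribonucleoprotein, had the smallest p at both scales. The tile chr7:67150101-67150200 read 63.6%, 52.2% and 57.9% in the nulls and 37.5% and 26.9% in the controls (adjusted p = 0.682 by limma). At day 13 the same tile had the smallest p in the opposite direction, with 38.9% and 23.5% in triple nulls and 59.4% and 51.7% in controls (adjusted p = 0.839 by limma). The Snrpn window was 10.5 points higher in hepatectomy nulls (95% interval 2.37 to 18.5, adjusted p = 0.988), and 6.49 points lower in day 13 triple nulls, so these differences had opposite signs. After hepatectomy the controls read 48.2% and 33.5% and the nulls 55.4%, 48.2% and 50.3%, so 1 control stood apart. Without the lower control the difference was 3.13 points, and without the other it was 17.8 points.

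**Figure D4:**
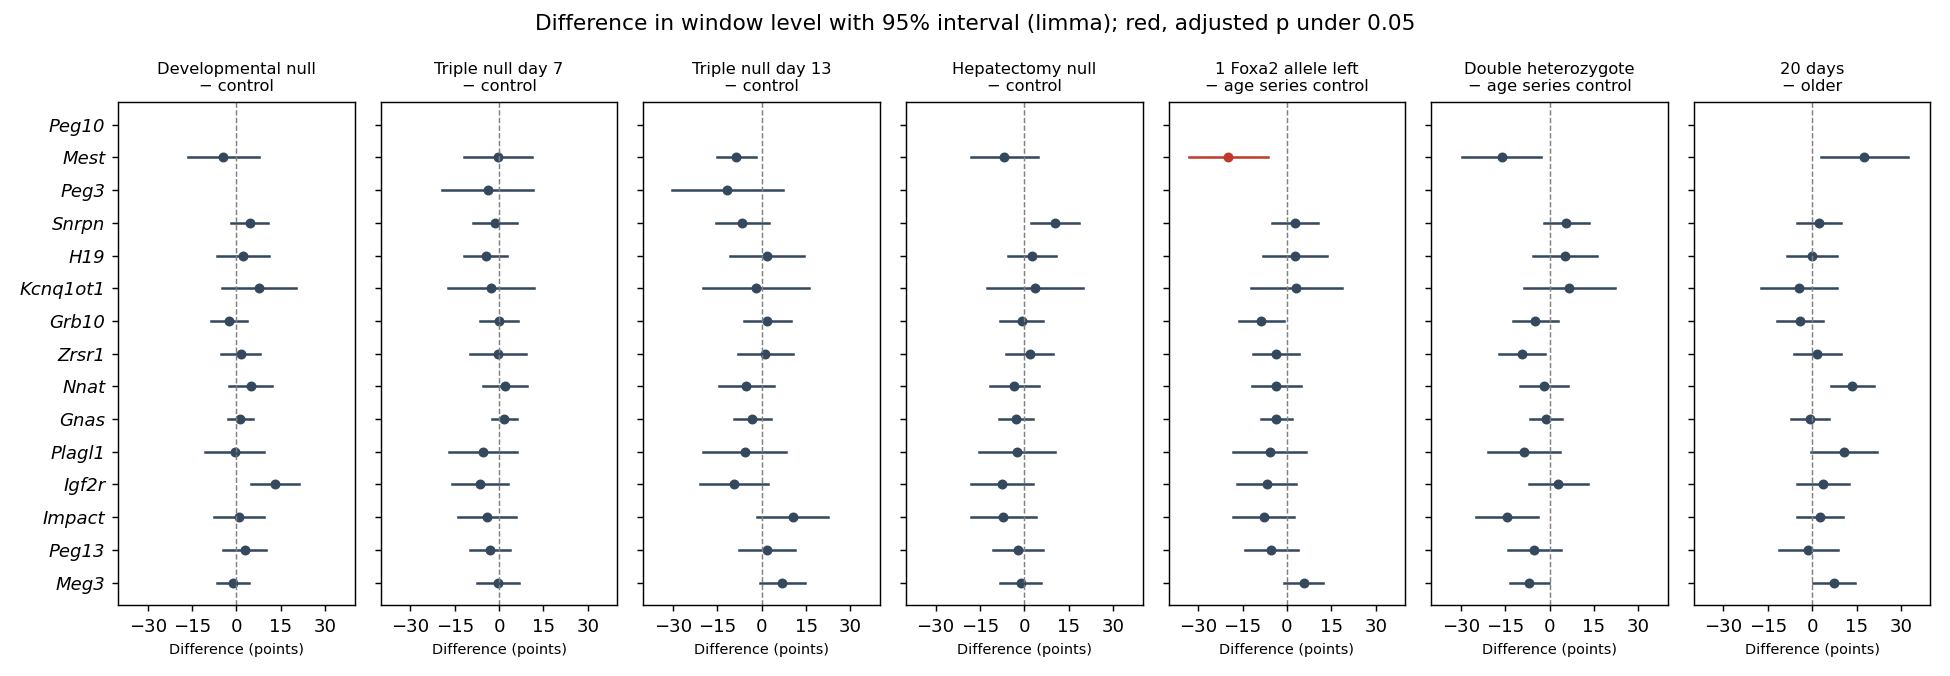
Difference in window level in percentage points (first named group minus second) with its 95% interval from limma, for 7 comparisons and the windows with at least 3 tiles tested. Red marks the 1 window with an adjusted p under 0.05, Mest in FoxA1L/L;FoxA2L/+ livers. The Igf2r interval in developmental nulls, 4.76 to 21.0, lies above 0 with an adjusted p of 0.191.

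Livers that kept 1 Foxa2 allele gave a few calls, all of lower methylation. Set against the 4 controls of the age series, FoxA1L/L;FoxA2L/+ livers had 2 of 122 imprinted tiles past limma's test (1.64%, against 6% of 385708 tiles, where 22751 of 23161 calls were also lower). The share in the windows was below that background. Among tiles of 5 to 95% mean level the background fell to 0.155% for tiles and 0.221% for regions, and 0 imprinted tiles and 0 windows passed. Grb10 chr11:11926101-11926200 read 50.6% and 35.2% in the mutants and 69.7%, 70.2%, 72.8% and 66.1% in controls of 20 days, 8 weeks, 4 months and 6 months. The difference was -26.8 points (SE 7.43, adjusted p = 0.0365), and the groups did not overlap. At this tile the 4 controls were above all of the other 23 libraries, which ranged from 33.9% to 64.9%. The tile was named through its difference from these same controls, so their rank was in part fixed by that choice. The share of all tiles with this order was not computed. Peg13 chr15:72640201-72640300 read 39.5% and 27.1% in the mutants and 58.3%, 65.3%, 55.9% and 60.9% in controls (difference -26.8 points, SE 6.97, adjusted p = 0.0272). Again the groups did not overlap. Both calls were lost without the 8-week control (adjusted p = 0.0668 for Grb10 and 0.0621 for Peg13, by limma) and without either mutant library (0.0747 and 0.361 for Grb10, 0.0729 and 0.282 for Peg13). The Grb10 call was also lost without the 20-day control (0.0509) or the 4-month control (0.0611).

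The Mest window was the only window called against age series controls, 1 of 13 in FoxA1L/L;FoxA2L/+ livers against 15.6% of 49286 regions. Its 5 tiles averaged 26.5% and 38.4% in the mutants and 69.6%, 46.4%, 45.7% and 47.5% in controls of 20 days, 8 weeks, 4 months and 6 months. The 20-day control stood above the older ones. The difference was -19.9 points (SE 6.29, 95% interval -33.2 to -6.48, adjusted p = 0.0429 by limma), and without the 20-day control it was -14.1 points (adjusted p = 0.0662). The call was lost as well without the first mutant library (-13.9 points, adjusted p = 0.349), the second (-25.8 points, 0.0613) or the 8-week control (-14.6 points, 0.172).

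FoxA1L/+;FoxA2L/+ livers gave 0 of 122 tiles past the test, against 6.09% of 390603, and 0 of 13 windows, against 15.6% of 50176 regions. At an unadjusted p under 0.05 there were 11 tiles (9.02%, against 19.3% of all tiles) and 4 windows (30.8%, against 25.2% of regions). Among tiles of 5 to 95% the backgrounds were 0.197% and 0.601%, again with 0 imprinted tiles and windows. The Impact window came closest, with 37.4% and 37.6% in the mutants and 52.5%, 53.7%, 51.9% and 49.3% in controls (difference -14.3 points, 95% interval -24.7 to -4.01, adjusted p = 0.0555 by limma). The 2 mutants were close together and below every control. Its tile chr18:13130701-13130800 had 34.2% and 48.4% in mutants and an adjusted p of 0.0591 (difference -18.0 points, or -10.9 without the first mutant, and called at 0.0489 without the 20-day control). These comparisons share their controls with each other and with the developmental nulls, and each mutant group may have been made apart from them, which was not tested.

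Nnat, a gene inside an intron of Blcap, held a local difference at 20 days. Both 20-day libraries, 1 control and 1 developmental null, were compared with the 6 older libraries of the age series, with genotype as a covariate. Limma's test called 2 of 117 imprinted tiles, both higher at 20 days (1.71%, against 0.559% of 369462 tiles), and 0 of 13 windows (against 1.81% of 47071 regions). The called tiles are neighbours in Nnat. The tile chr2:157383901-157384000 read 57.1% in the 20-day control and 63.2% in the 20-day null. The controls of 8 weeks, 4 months and 6 months read 5.51%, 7.48% and 3.94%, and the nulls of these ages 27.4%, 16.1% and 19.8%. The difference was 46.8 points (SE 4.06, 95% interval 37.4 to 56.2, adjusted p = 0.00373). The tile chr2:157384001-157384100 read 61.1% and 71.4% at 20 days, 21.9%, 2.63% and 5.26% in older controls and 27.5%, 19.4% and 17.5% in older nulls (difference 50.6 points, SE 5.81, 95% interval 37.1 to 64.1, adjusted p = 0.0124). At both tiles the 20-day libraries, from 57.1%, stood above every older library, up to 27.5%.

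Libraries of the other experiments, aged 8 to 12 weeks, had low values at both tiles too. The 19 of them ran from 3.45% to 21.2% (median 11.7%) at the first tile and from 2.08% to 18.5% (median 9.09%) at the second. The tile before them, chr2:157383801-157383900, read 93.8% and 89.7% at 20 days, 12.5% to 50.0% in older controls and 63.3% to 82.8% in older nulls, and was not called. On the far side the next tile measured in all libraries, chr2:157385301-157385400, read 85.0% and 88.8% at 20 days, within or near the range of the older libraries (64.8% to 93.8%). Over its 12 tiles the Nnat window stood at 72.2% ± 1.71 at 20 days (n = 2) and 58.6% ± 4.72 later (n = 6), a difference of 13.6 points (SE 3.21, 95% interval 6.33 to 20.9) with an adjusted p of 0.0849 by limma. With 1 library per genotype at 20 days, age cannot be told apart from the animals used. On the logit scale neither tile was called.

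**Figure D5:**
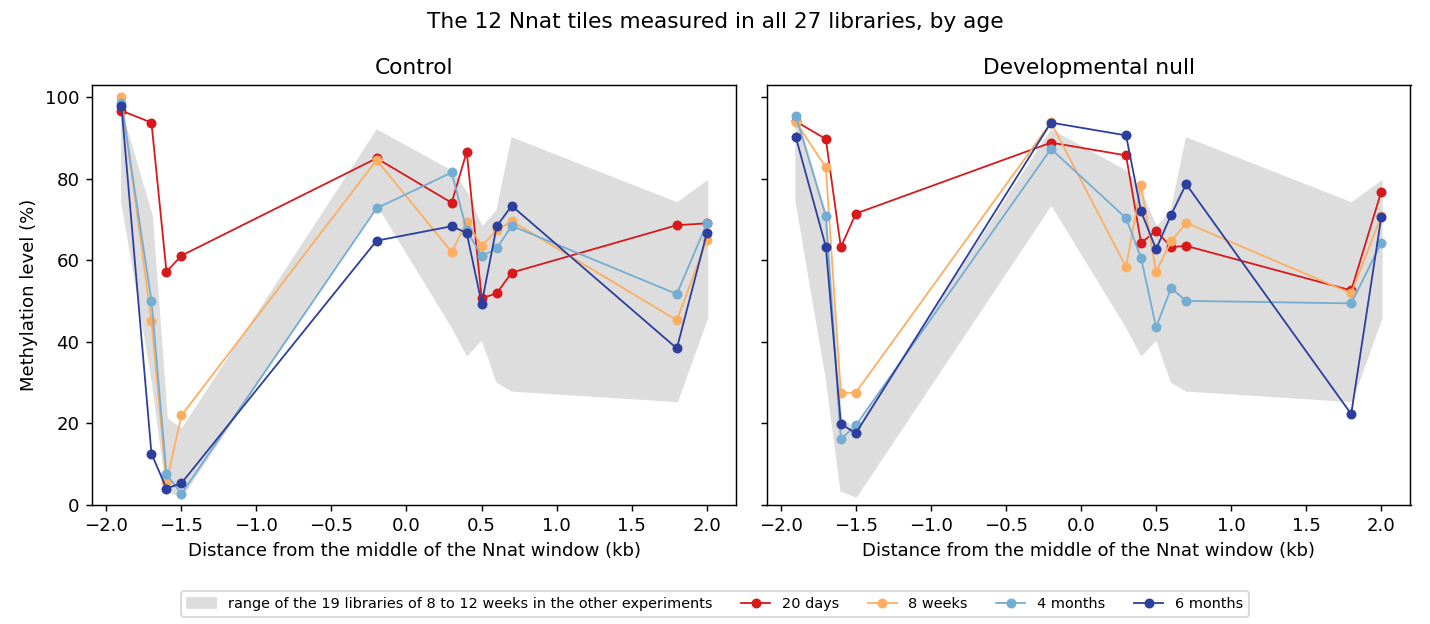
Methylation level (%) of the 12 Nnat tiles measured in all 27 libraries against distance from the middle of the window in kb, in controls (left) and developmental nulls (right), with 1 line per age and a grey band for the range of the 19 libraries of the other experiments. Near -1.5 kb the 20-day libraries (red) stand at 57.1 to 71.4%, where older libraries stand at 2.63 to 27.5%.

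A test for any difference among the 10 groups passed a smaller share of the imprinted tiles than of all tiles, an order that depended on which levels were compared. Limma's F-test passed 10 of 114 imprinted tiles (8.77%, against 19.7% of 331959 tiles) and 6 of 13 windows (46.2%, against 57.8% of 41044 regions). The windows were Gnas (adjusted p = 0.000159), Igf2r (0.00160), Plagl1 (0.00914), Grb10 (0.0172), Impact (0.0175) and Nnat (0.0452). In 3 of the 15 windows all 8 libraries of the age series were above all 5 libraries of the hepatectomy experiment. These were Gnas, Grb10 and Peg10, the last with too few tiles for this test. The share of all regions with this order was not computed. Library means over all other tiles of 40 to 60% had the same order. They ran from 50.3% to 57.0% in the age series and from 46.6% to 47.9% after hepatectomy. Gnas stood at 52.8% ± 2.67 and 53.8% ± 3.37 in age series controls and developmental nulls, and at 41.4% ± 0.28 and 40.4% ± 2.24 in hepatectomy controls and nulls. The tile with the smallest adjusted p was Grb10 chr11:11925901-11926000 (adjusted p = 0.00235), which read 67.6% and 71.3% in day 13 controls and 29.6%, 28.1% and 23.3% in day 7 controls. These control groups differ in age and in days after induction, and by experiment. The other named tiles were Gnas chr2:174125501-174125600 (0.00365), Zrsr1 chr11:22872601-22872700 (0.00660), Grb10 chr11:11925701-11925800 (0.0174) and Grb10 chr11:11926101-11926200 (0.0214). The Zrsr1 tile was the low one of its window, at 30.7% to 49.1% in the age series and 0.606 to 24.6% after hepatectomy. Among tiles of 5 to 95%, 5 of 114 imprinted tiles passed, against 1.95% of tiles, and 6 of 13 windows, against 42.2% of regions. Under this filter the share of imprinted tiles, resting on 5 tiles, was above the background. The share of windows was close to it. Without the 8 libraries of the age series 0 tiles and 0 windows passed, against 0.394% of 370323 tiles and 2.55% of 46391 regions.

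Other readouts of the series touched the windows at few places. The WGBS tables give 1 level per 400 bp FoxA site, and a single site lay inside a window, at Impact (chr18:13130747-13131146). It read 42.9% and 53.8% in 2 controls, 55.9% and 37.6% in 2 developmental nulls and 60.8% and 41.3% in 2 adult nulls. The means were 48.3% ± 7.75, 46.7% ± 12.9 and 51.0% ± 13.8 (SD, n = 2 each), and the groups overlapped. WGBS thus placed this stretch near 50%, as RRBS did for the Impact window. A second site lay at the edge of the Meg3 window (chr12:110769866-110770265). It read 5.16% ± 2.01 in controls, 3.94% ± 2.39 in developmental nulls and 3.95% ± 2.84 in adult nulls. These levels were far below the tiles of that window measured in all 27 libraries, which lay near its other end. The 7 deposited peak lists of HNF6, a liver homeodomain factor, held 0 peaks inside any window. In 5 of the 7 lists there was 1 peak about 3 kb from the Meg3 window, with the authors' fold enrichment from 4.46 to 36.3.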

How the data were processed

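RRBS was analysed in 27 libraries, WGBS in 6 and HNF6 ChIP through 7 peak lists; the other ChIP libraries of the 73 samples were not analysed here. Sample titles gave the groups. The authors deposited methylation as a fraction per 100 bp RRBS tile and per 400 bp FoxA site, which was multiplied by 100 here. Per the submitters' processing notes, the tools were Trim Galore 0.3.3 and BSMAP 2.74, on mm9. The step from reads to tile fractions was not given in the sources used here. Coverage is not listed, so depth is unknown, and no interval of a single level was computed. Libraries had values at 445198 to 622668 tiles, of which 132 to 165 lay in the windows. Peak lists hold the fold enrichment that MACS 1.4.3 (adult nulls) and MACS 2.1.1 wrote, per the file headers; this ratio is the authors' and was only read off. The authors' averages of groups were not used. In the adult WGBS table, 1 column headed as a developmental null equals control 2 at 28654 of 28654 common sites and was used for that check only.

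Percent levels were tested with limma 3.58.1 in R 4.3.3 (variance trend, Benjamini-Hochberg over all tiles or regions, threshold 0.05). All RRBS groups shared 1 estimate of the spread, and tiles had to be measured in every library compared. A region was a window or a 5 kb bin with at least 3 tiles. The age comparison used the 8 libraries of its series. The fits were tested on simulated data. Nothing in the labels says that libraries came from separate litters or batches, so p-values measure the spread between these libraries. Libraries of the same number or age were not paired in the main tests, so libraries of different ages counted as replicates in the age series. Between libraries of the same number or age, correlations of deviations were 0.064 to 0.386 in the age series and -0.061 to 0.011 elsewhere.

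All windows were named; of tiles, the one nearest 50% in each window, up to 5 past the threshold per comparison and otherwise the one with the smallest p. The windows, tests and lists were chosen with earlier results of these data known. Alternatives were a logit scale, a spread from the compared groups alone, tiles of 5 to 95%, medians over tiles, 1 tile per region, a replicate block and leaving out each library.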

Additional observations from a re-analysis of the deposited data

Results flagged for a closer look

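The Mest window in the age series controls held 1 library far from the others. The 20-day control stood at 83.6% over 3 tiles, the nearest other control at 52.8%, and this gap took up 0.851 of the group's whole range, above Dixon's critical value for 4 libraries. It was 1 of 30 groups of 4 libraries tested, and chance alone gives about 1 in 20. The 20-day developmental null stood at 55.3%, among the other nulls, of which the lowest stood at 45.6%. Of 39 tests of whether a window's null effect differed between the developmental and an adult experiment, 0 passed limma's adjusted threshold and 4 had an unadjusted p under 0.05. They were Igf2r against each adult experiment and Snrpn against day 13. The Igf2r contrasts share 1 developmental difference and are not separate signals. The share of all regions at that p was not computed.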

How the results depend on the processing

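With 690 alternative values computed, the counts of called tiles and windows stayed at 0 in all 4 comparisons of nulls with their own controls. A replicate block also gave 0 called tiles and 0 windows in each of these 4. In the age series the titles give this block, with 1 control and 1 null per age. Elsewhere it was the sample number, which the labels do not support as a pairing. In FoxA1L/L;FoxA2L/+ livers the 2 called tiles became 0 when only the compared groups set the spread and 0 among tiles of 5 to 95%, where 0.155% of all tiles passed; leaving out 1 library gave 0 to 3. The 1 called window became 0 under both of these settings, with medians over tiles and with 1 tile per region; leaving out 1 library gave 0 to 2. In FoxA1L/+;FoxA2L/+ livers the 0 called tiles became 1 on the logit scale, and 0 to 1 without 1 library. For age, the 2 called tiles became 0 on the logit scale and 1 to 2 without 1 library; the first Nnat tile passed in 9 of 10 alternatives and the second in 4 of 10. For any difference among groups, the 10 called tiles became 5 among tiles of 5 to 95% and 6 to 10 without 1 library, and the 6 windows became 5 to 8 without 1 library. Both counts became 0 without the age series, and 0 when the livers that kept alleles were left out too, an alternative chosen after seeing the data. Of the named tiles and windows, 1 reversed: Mest at day 13, where medians over tiles gave 4.15 points (adjusted p = 1); the cause was not tested. The mean of the 15 windows, 50.3%, ran from 49.1% to 50.7% with medians, all measured tiles or tiles of 20 to 80%. Coverage minimums could not be tried. The median 95% interval of a window reached 7.37 to 9.31 points to each side across comparisons, without adjustment for the number of regions. Differences of 12.9 points (Igf2r in developmental nulls) and -14.3 points (Impact in FoxA1L/+;FoxA2L/+ livers) did not pass the adjusted test.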
